A study of Homo sapiens with 40 samples.

Results

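In control A549 cells, 102976 peaks of H3K9me3 were listed, and 42203 of them (41.0%) form the set described here: H3K9me3 peaks of the active compartment that had no counterpart after SETDB1 loss. The members were chosen by measured values: a control peak was taken when it was under 20 kb wide, when no KO H3K9me3 peak overlapped it by even 1 bp, and when its midpoint lay in a 100 kb Hi-C bin with a control compartment score above 0 (compartment A). The members covered 115 Mb, 33.5% of the length of all control H3K9me3 peaks, and lay on all 23 chromosomes in the lists. Other sets under 20 kb serve as comparison: 4707 peaks of A that a KO peak overlapped ("kept in A"), 17252 peaks without a KO peak in bins scored below 0 ("lost in B"), and the 35447 kept in B.

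The study used A549, an established lung adenocarcinoma line carrying K-RAS G12S per the labels. Control cells (CT) were compared with a SETDB1 loss-of-function line (KO), made by CRISPR/Cas9 with a guide carried on the PX458 plasmid. Whether the KO cells are a single clone is not given in the sources used here. Each ChIP-seq target was assayed in 2 libraries per genotype, Hi-C in 2 and RNA-seq in 3. Input libraries of each genotype were shared among the histone marks, and CTCF had its own. One peak list per target and genotype was used, so shares of peaks have no replicate error, no test was possible on them, and their 95% Wilson intervals reflect only the counting of peaks. Coordinates refer to hg19.

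SETDB1 is an enzyme that trimethylates lysine 9 of histone H3 and so deposits H3K9me3, found on silent chromatin. It often acts with the corepressor KAP1, which zinc finger proteins bring to repeats and other sequences. H3K27me3 is the silencing mark of Polycomb repressive complex 2, H3K4me3 marks promoters, and H3K27ac marks active promoters and enhancers. CTCF is a DNA-binding protein that anchors chromatin loops and domain boundaries. Compartment A is the gene-rich, active part of the genome in Hi-C maps, so H3K9me3 there lies as islands among active chromatin.

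Labels were checked in the RNA-seq counts, scaled to CPM by each library's total of 18065062 to 48364919 counts. SETDB1 stood at 36.4, 39.7 and 38.4 CPM in control and 23.7, 21.6 and 21.0 CPM in KO libraries, without overlap, and the KO mean was 57.9% of the control mean. Of the epithelial genes, the keratins KRT8 (2055 to 2367 CPM in control, 6358 to 6915 CPM in KO) and KRT18 (755 to 783 CPM and 2480 to 2715 CPM) were high, the cadherin CDH1 was at 26.1 to 27.3 CPM and 51.4 to 54.4 CPM, and EPCAM was at 3.76 to 4.25 CPM and 10.3 to 11.5 CPM. By contrast, the lung markers SFTPC and NKX2-1 and the blood marker PTPRC were at or below 0.177 CPM in every library, and the fibroblast collagen COL1A1 was at 3.04 to 4.14 CPM. In control, H3K27ac peaks covered 6.94% of the length of compartment A and 0.432% of compartment B.

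The values that chose the members were the KO overlap, the width and the control score, and they are given as a description. Of all control peaks 60.0% had no KO peak, of those under 20 kb the share was 90.0% in A and 32.7% in B. Members had a median width of 1993 bp (quartiles 1155 and 3440 bp, extremes 241 and 19992 bp), against 3712 bp for peaks kept in A and 2047 bp for those lost in B. The lost share in A ran from 97.1% of peaks under 1000 bp to 70.9% of peaks from 8000 bp up. A further 152 peaks of A without a KO peak were 20 kb or wider and fall outside the set. Just inside the width limit, the 57 members within 2000 bp below it had H3K27me3 on 36.8% in control and 33.3% in KO, and the 36 lost peaks of A within 2000 bp above it had it on 30.6% and 22.2%. At the score limit, 1421 members with a control score up to 0.05 carried H3K27me3 at 51.5% in control and 39.7% in KO, and 1401 lost peaks between -0.05 and 0 carried it at 48.2% and 34.6%. At the overlap limit, 95 members lay within 500 bp of a KO peak and 76.8% of them had control H3K27me3, as had 79.5% of the 278 kept peaks of A with a KO overlap of at most 500 bp.

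Most members carried none of the other histone marks in either genotype. In control, 24044 of 42203 members (57.0%) had no peak of H3K27me3, H3K27ac or H3K4me3, 29.7% had H3K27me3 alone, 12.2% had an active mark (H3K27ac, H3K4me3 or both) without H3K27me3, and 1.15% had both kinds. In KO the same classes held 59.5%, 24.0%, 15.0% and 1.48%. The members without any of these marks in KO numbered 25101.

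H3K27me3 was the commonest other mark at members. It overlapped 30.8% (30.4 to 31.3%) of them in control and 25.5% (25.1 to 25.9%) in KO, a log2 ratio of -0.27. Of the members with a control H3K27me3 peak, 73.8% had one in KO as well, and of those with one in KO, 89.2% had had it before. The mark was found in KO alone at 1163 members (2.76%) and in control alone at 3413 (8.09%). Peaks kept in A stood apart in level: 86.9% had H3K27me3 in control and 81.8% in KO. That gap held within width classes, since members ranged from 19.7% to 43.2% across 5 classes and kept peaks from 66.0% to 93.7%. Peaks lost in B were at 43.8% and 33.3%.

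Both active marks were on more members in KO than in control. H3K27ac overlapped 10.9% (10.6 to 11.2%) of members in control and 13.3% (13.0 to 13.6%) in KO, a log2 ratio of 0.29, with 1828 members (4.33%) marked in KO alone and 807 (1.91%) in control alone. For H3K4me3 the shares were 7.99% (7.74 to 8.25%) and 10.5% (10.3 to 10.8%), a log2 ratio of 0.40, with 1713 members (4.06%) marked in KO alone and 634 (1.5%) in control alone. Among peaks kept in A the shares were lower: H3K27ac was on 2.57% of them in control and 2.42% in KO, and H3K4me3 on 4.14% and 4.82%. Of these kept peaks, 29 had H3K27ac in KO alone and 36 in control alone. For H3K4me3, 81 (1.72%) were marked in KO alone and 49 (1.04%) in control alone. Peaks lost in B had 2.68% and 5.77% with H3K27ac and 4.09% and 9.73% with H3K4me3, so the KO share of H3K4me3 there came close to that of members in A. The levels depend on the overlap rule: with a mark counted within 1000 bp, H3K4me3 was at 17.1% and 20.1% of members and H3K27ac at 17.1% and 19.2%.

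CTCF was rare at members. Its peaks overlapped 548 members (1.30%, 1.19 to 1.41%) in control and 1152 (2.73%, 2.58 to 2.89%) in KO, a log2 ratio of 1.07, and only 259 had it in both. The KO CTCF list was also longer as a whole, with 34474 peaks against 23903 in control. In A away from members it held 21576 peaks against 13158 in control. When each share was divided by the length of A that the list of its genotype covers, the log2 ratio was 0.087. That value sets a share of members against a covered length, which are unlike measures. By covered length on both sides, the log2 ratio was 1.33 at members and 0.97 in the rest of A. Counted within 1000 bp, CTCF was at 2.47% and 4.84% of members, and with at least 200 bp of overlap at 0.808% and 2.19%.

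**Figure D1:**
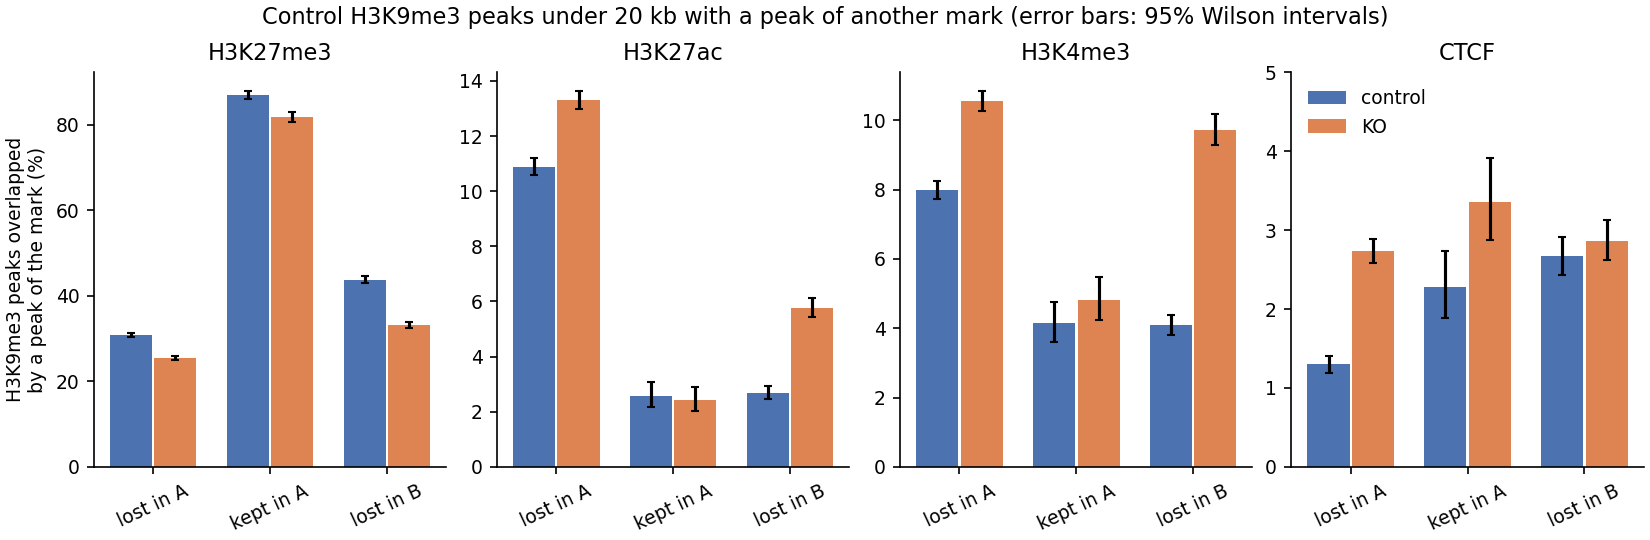
Share of control H3K9me3 peaks under 20 kb overlapped by a peak of H3K27me3, H3K27ac, H3K4me3 or CTCF (vertical axes, percent, each from 0 with its own range), for peaks lost in A, kept in A and lost in B, in control and KO lists. Bars on the columns are 95% Wilson intervals. H3K27me3 was on 30.8% and 25.5% of the peaks lost in A and on 86.9% and 81.8% of those kept in A.

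List length differs between genotypes, so the length of DNA covered at members was set beside the rest of compartment A, in the same lists. H3K27me3 covered 26.0% of member length in control and 21.0% in KO, and 7.38% and 9.0% of the rest of A, so the log2 ratio was -0.31 at members and 0.29 outside them. H3K27ac covered 4.11% and 5.66% of member length against 7.18% and 7.44% elsewhere (log2 ratios 0.46 and 0.052). H3K4me3 covered 2.14% and 2.97% against 6.23% and 6.64% (0.47 and 0.092). CTCF covered 0.107% and 0.270% against 0.270% and 0.530% (1.33 and 0.97). At members, then, the active marks covered less than in the rest of A in both genotypes, and the log2 ratio between genotypes was further from 0 there.

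The same comparison was made within each chromosome, a choice made after the data were seen. The log2 ratio of H3K27me3 coverage was lower at members than in the rest of A on 23 of 23 chromosomes, with a median difference of -0.63. That of H3K27ac was higher at members on 23 of 23 (median difference 0.46), and that of H3K4me3 on 22 of 23 (0.41), with chromosome 22 the exception at -0.17. For CTCF it was higher on 19 of the 22 chromosomes with a control peak at a member. Chromosomes of 1 list share their libraries and are not replicates.

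Chromosomes 2 and 12 were the extremes of the change in share for both H3K27 marks. On chromosome 2, H3K27me3 went from 31.4% to 21.6% of members and H3K27ac from 10.9% to 11%. On chromosome 12 the shares were 28.4% and 27.3% for H3K27me3 and 11.2% and 16.7% for H3K27ac. The rest of A moved alongside: its log2 ratio of H3K27ac coverage was -0.30 on chromosome 2 and 0.31 on chromosome 12. The difference between members and the rest of A was close on both, at 0.48 and 0.46 for H3K27ac and -0.65 and -0.62 for H3K27me3.

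**Figure D2:**
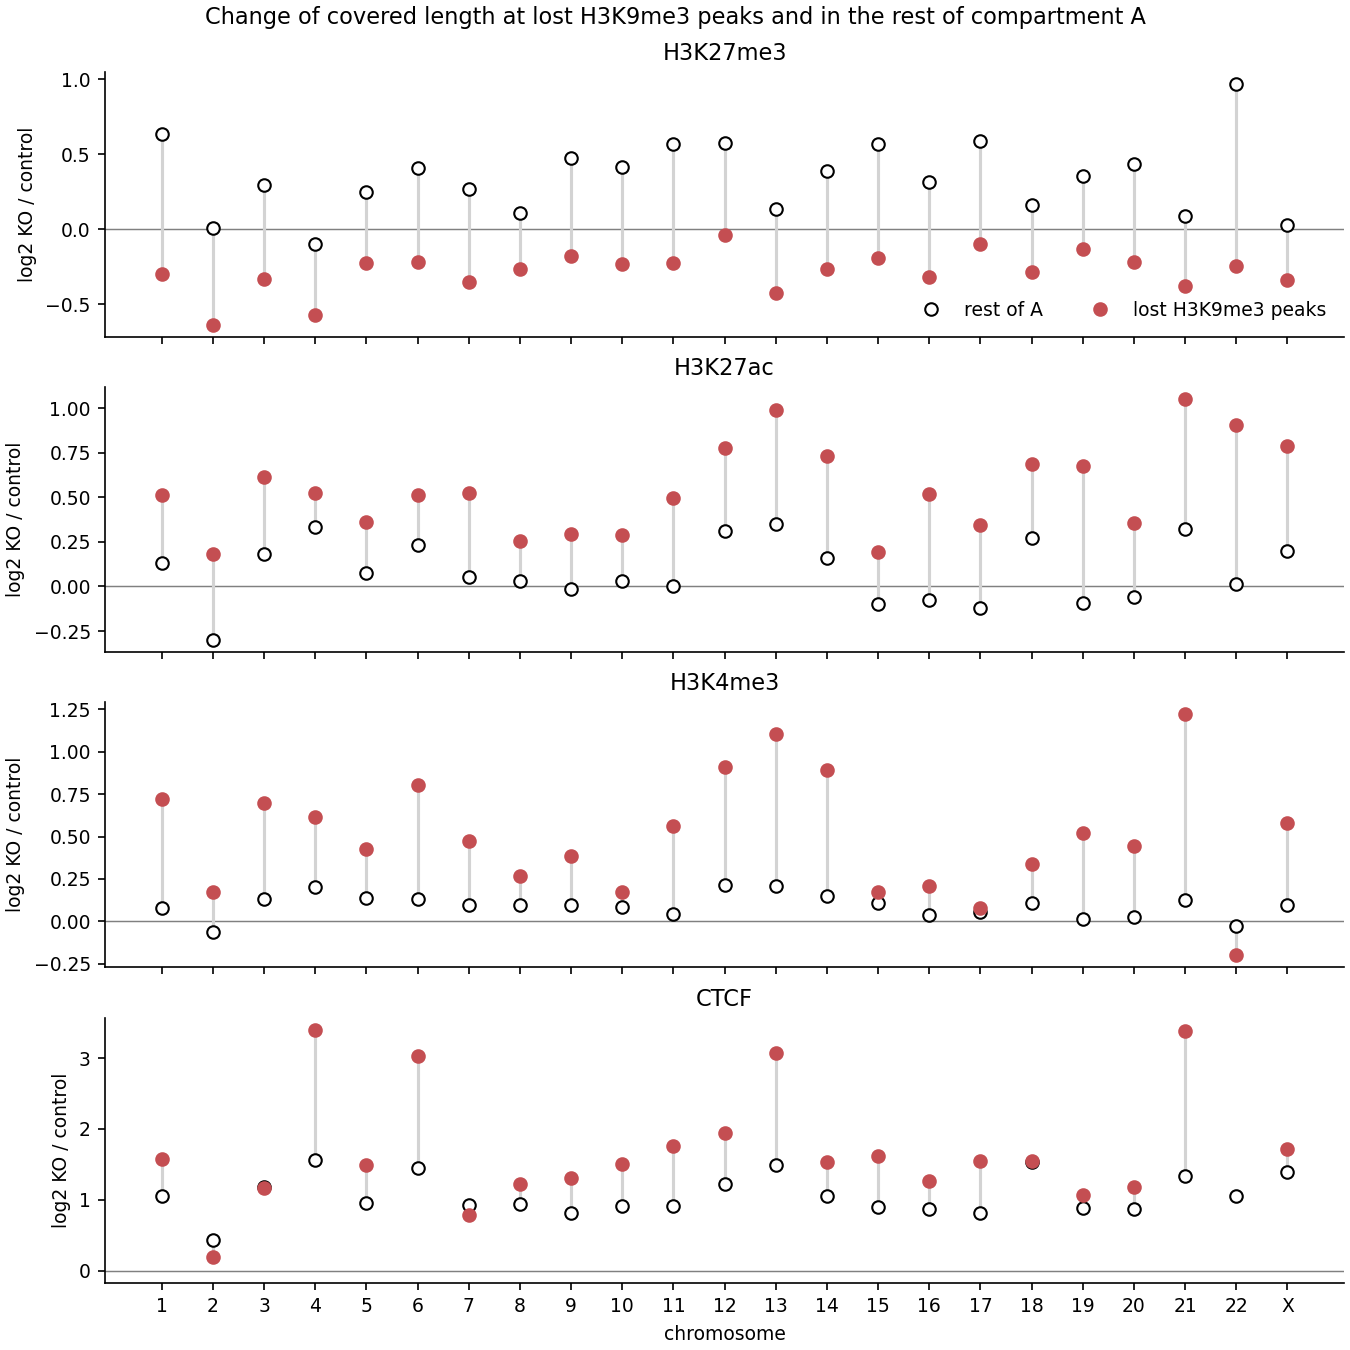
Log2 ratio of KO to control covered length (vertical axis) on each chromosome (horizontal axis) for members (filled points) and the rest of compartment A (open points), 1 panel per mark, with a grey line joining each pair. For H3K27me3 the filled point lies below the open one on 23 of 23 chromosomes, and for H3K27ac above it on 23 of 23. CTCF on chromosome 22 has no filled point because no control CTCF peak lay at a member there.

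The coverage around member midpoints showed where these differences lay. H3K27me3 peaked over the member, at 25% of length in the central steps of 500 bp against 11.5% at 5000 to 10000 bp from the midpoint in control. In KO the centre was at 19.9% and the flank at 12.9%, so the genotypes differed in opposite directions at the centre and the flank. H3K27ac dipped over the member, with 3.93% at the centre and 6.97% in the flank in control, and 5.41% and 7.36% in KO. H3K4me3 dipped more steeply, from 5.64% in the flank to 2.09% at the centre in control and from 6.06% to 2.86% in KO. The dips of both active marks were therefore present in KO as well, where the H3K9me3 peak was not. Around peaks kept in A, H3K27me3 was at 79.1% at the centre in control and 75.2% in KO, and the H3K27ac flank was at 1.24% and 1.23%.

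**Figure D3:**
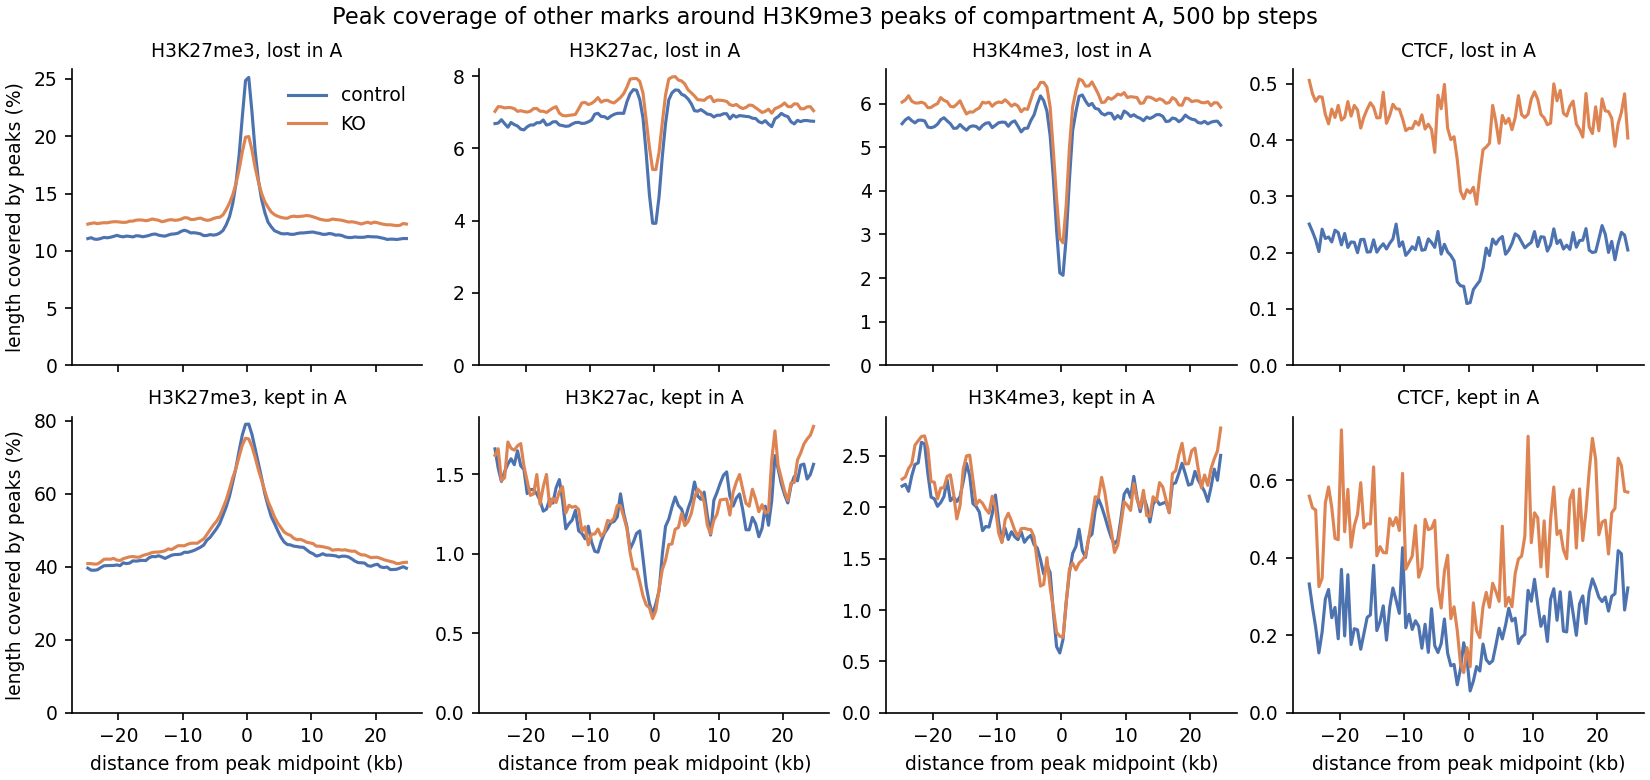
Length covered by peaks of each mark (vertical axes, percent, each from 0 with its own range) against the distance from the H3K9me3 peak midpoint (kb, 500 bp steps), in control and KO lists. The upper panels show peaks lost in A and the lower panels peaks kept in A. Over peaks lost in A, H3K27me3 has a central maximum of 25% in control and 19.9% in KO, and H3K27ac a central minimum of 3.93% and 5.41%.

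Each member could be followed from its control state to its KO state. Of the members with no other histone mark in control, 88.2% (87.8 to 88.6%) had none in KO, 7.22% (6.90 to 7.55%) had an active mark and 4.51% (4.26 to 4.78%) had H3K27me3. Of those with H3K27me3 alone, 71.8% still had it alone and 24.5% had no mark, whereas 1.52% had active marks alone and 2.16% had both kinds. Of those with active marks alone, 83.3% stayed in that class and 15.5% had no mark. Exchange between the H3K27me3 and active classes was thus rare, with 190 members passing from the first to the second and 13 the other way.

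KO-only marks were unevenly spread over these states. Among members without control H3K27ac, the mark was listed in KO at 35.5% (32.6 to 38.4%) of the 1049 that had H3K4me3 in control, and at 3.98% (3.79 to 4.19%) of those that had not. It was listed at 1.68% of members with control H3K27me3 and at 6.52% of those without. Where H3K27ac was KO-only at a member with control H3K27me3, the H3K27me3 peak was absent from the KO list at 59.3% (52.6 to 65.6%) of 216 members. Where H3K27ac was in neither list, the H3K27me3 peak was absent from the KO list at 25.4% (24.7 to 26.2%). KO-only H3K4me3 and KO-only H3K27ac coincided at 547 members, 31.9% of the 1713 and 29.9% of the 1828. A KO-only CTCF peak was found at 893 members, of which 17.0% had H3K4me3 in KO.

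The peaks themselves also differed in place and size. In control 19.0% of overlaps between an H3K4me3 peak and a member had the H3K4me3 peak wholly inside the member and 74.2% had it across 1 edge. In KO these shares were 30.0% and 64.0%. For H3K27ac, 16.3% lay wholly inside in control and 21.4% in KO. KO-only H3K4me3 peaks at members had a median width of 757 bp, against 1824 bp for those also present in control, and lay a median of 8521 bp from the nearest control H3K4me3 peak. Elsewhere in the genome KO-only H3K4me3 peaks were narrow too, with a median width of 693 bp, and lay a median of 18310 bp from a control H3K4me3 peak.

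Turnover of each mark at members was read against its whole list. Of KO H3K4me3 peaks touching a member, 34.1% (32.8 to 35.5%) had no control peak, against 20.9% elsewhere in A and 30.2% in the whole list. For H3K27ac, 28.0% of those at members were KO-only, near the 27.5% elsewhere in A and below the 31.3% of the list. For CTCF the shares were 76.7%, 53.0% and 61.4%, and for H3K27me3 they were 10.9%, 39.8% and 29.0%. Control-only peaks made up 27.5% of the H3K27me3 peaks at members, 23.1% elsewhere in A and 47.0% of the list. Among H3K27ac peaks they made up 14.2%, 28.5% and 26.9%. Among H3K4me3 peaks these shares were 10.6%, 13.9% and 14.9%, and among CTCF peaks 54.9%, 22.6% and 44.1%. H3K27ac peaks at members were wider in control than those elsewhere in A, with medians of 2162 and 1338 bp, and the part of width in these shares was not tested.

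Marks at members followed the control compartment score, which the rule used only through its sign. From the lowest to the highest quartile of A bins by score, the members per Mb went 32.6, 31.5, 27.8 and 23.2. H3K27me3 was on 41.9% of members in the lowest quartile and 22.1% in the highest in control, and on 33.1% and 17.8% in KO. H3K27ac ran the other way, on 6.82% and 14.7% in control and 8.88% and 17.4% in KO. In each quartile the KO share was lower for H3K27me3 and higher for the active marks and CTCF.

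Members were spread over most of compartment A. Of 14672 bins of A, 12770 (87.0%) held at least 1 member, with a median of 3 in an occupied bin and at most 16. Density per Mb of A bins was 28.8 overall and ran from 18 on chromosome 22 to 34.3 on chromosome 7. The gap from one member to the next had a median of 16264 bp, with quartiles of 5894 and 40705 bp and 10th and 90th percentiles of 2343 and 89182 bp. For peaks kept in A the median gap was 27925 bp with an upper quartile of 243782 bp, and for peaks lost in B it was 15524 bp. Measured to the closer side, the nearest other member lay a median of 7767 bp away, within 5 kb for 36.7% of members and within 1000 bp for 0.877%. Gaps under 1000 bp were about as rare among peaks kept in A (0.977%). Among the gap classes counted, none below the one centred on a log10 of 2.95 bp held a gap in either set. How the lists joined close peaks is not given, so its part in this floor was not tested.

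The fate of the next control peak is a description, since lost and kept come from the KO overlap that the rule used. Of all control peaks of A, 89.9% were lost. After a member, the next control peak of A was lost in a near share, 93.7% (93.4 to 93.9%). After a kept peak it was lost in 56.5% (55 to 57.9%) of cases. At gaps of 1000 to 5000 bp the values were 91.6% and 47.1%, and from 100000 bp up they were 97.2% and 81.3%. After a kept peak the lost share was thus below that of all control peaks of A, and least so at the longest gaps. The value there rests on 64 next peaks (70.0 to 88.9%). A KO peak that spans neighbouring control peaks makes all of them kept, and its part in these values was not tested.

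**Figure D4:**
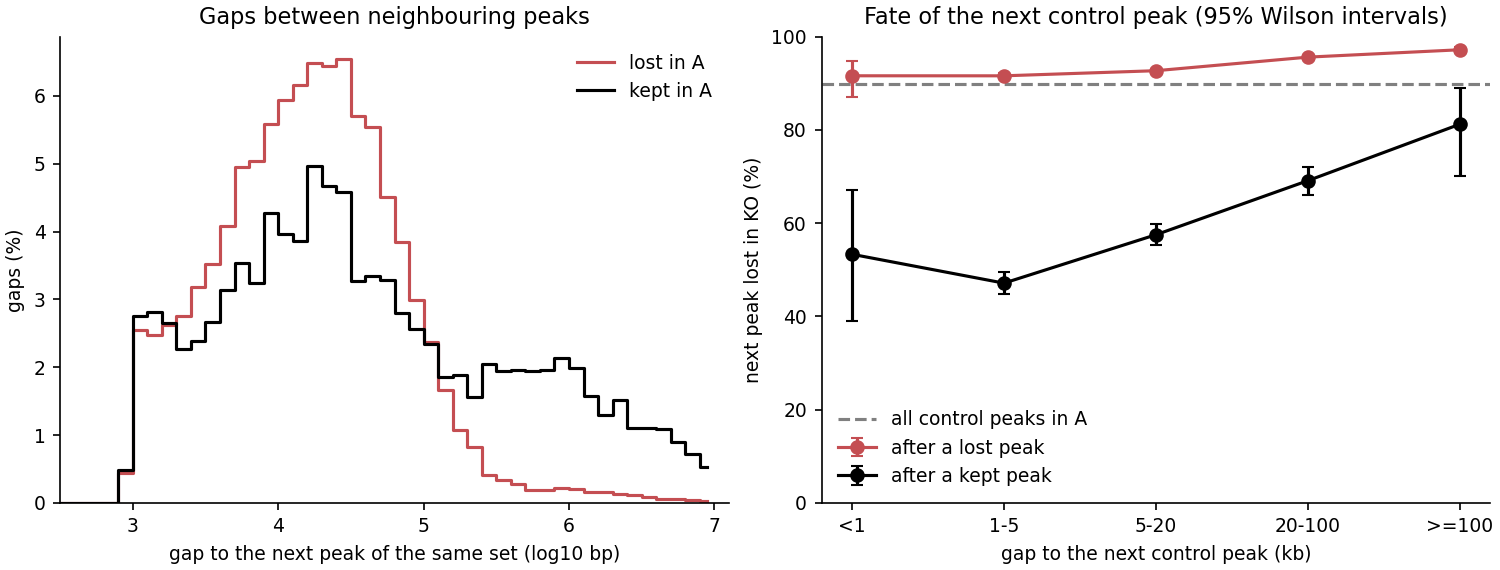
Left, gaps between neighbouring peaks of the same set (horizontal axis, log10 bp; vertical axis, percent of gaps) for peaks lost and kept in A. Right, share of next control peaks in A that were lost (percent, with 95% Wilson intervals) after a lost and after a kept peak, by the gap between them, with a dashed line at the 89.9% of all control peaks in A. After a kept peak the share runs from 47.1% at 1000 to 5000 bp to 81.3% at the longest gaps.

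Uninterrupted runs of members are given as a description, since they are built from the KO overlap that the rule used. The members fell into 3694 runs of neighbouring control peaks that were all members, with a median of 5 and a mean of 11.4 per run. Of all members, 81.1% stood in 1289 runs of 10 or more, whose median span was 632 kb. Since 90.0% of the peaks of A under 20 kb were lost, runs would be long in random order too. The lengths that random order would give were not computed, so no excess is read from these values. The longest run held 154 members over 4164 kb at chr2:188816068-192980394. Of these 154, 22 had H3K27me3 in control and 15 in KO, 24 and 23 had H3K27ac, and 18 and 21 had H3K4me3. Next came 147 members at chr8:98481767-102861226, with H3K27ac on 13 in control and 23 in KO. The third run held 141 members at chr6:8902853-12371143, with H3K4me3 on 18 in control and 23 in KO.

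The fullest 100 kb bins differed in their marks. The bin chr5:57400001-57500000 held 16 members that together covered 67204 bp, none with H3K27me3 and 6 with H3K27ac in control and 5 in KO. Of the 15 members in chr5:58800001-58900000, 14 had H3K27ac in control and 13 in KO, and 13 and 14 had H3K4me3. The 14 members in chr2:221100001-221200000 had nearly no other mark, with a single H3K27ac overlap in control and none in KO. The compartment score of that bin was 0.23 and 0.19 in the control replicates and 0.42 and 0.51 in the KO replicates. The first bin scored 0.83 and 0.97 in control and 1.11 and 0.98 in KO, and the second 1.10 and 1.06 in control and 0.90 and 0.95 in KO, so the 3 bins did not move in the same direction.

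The widest members illustrate the kinds of change. At chr8:58537771-58557762, 19992 bp wide, H3K27me3 peaks covered 16712 bp in control and 12707 bp in KO, and 505 bp of H3K4me3 were listed in KO alone. Its bin lay at the edge of A, with -0.010 and 0.054 in the control replicates, and scored 0.46 and 0.43 in KO. The widest with both active marks in KO alone was chr20:45722891-45741386 (18496 bp), where H3K27ac covered 1981 bp and H3K4me3 1056 bp in KO and neither was listed in control. At chr20:57050690-57070397 (19708 bp), H3K27me3 covered 14502 bp in control and none in KO, where a CTCF peak put 360 bp inside the member. The 3 widest with H3K27me3 in KO alone were chr7:46027580-46046837, chr7:105976797-105995690 and chr1:203920527-203939187, where the mark covered 601, 4604 and 6956 bp. At the second of these H3K27ac went from 1673 to 0 bp and H3K4me3 from 1328 to 833 bp, and its bin scored 0.73 and 0.91 in the control replicates and -0.31 and -0.26 in KO. The bins of the first and the third stayed above 0, at 0.80 and 1.39 in the control column and 0.84 and 1.29 in the KO column. Both active marks were in control and in neither KO list at 96 members, the widest at chr8:66680358-66697692 with 2428 bp of H3K4me3 and 24 bp of H3K27ac in control. H3K4me3, H3K27ac and CTCF were all present in both genotypes at 12 members. The widest of these, chr10:92666632-92679849, had 2233 bp of H3K4me3 in control and 1077 bp in KO, and its bin scored 0.076 and 0.052 in control and -0.096 and -0.13 in KO. The next, chr5:140200133-140208511, had 1206 bp of H3K4me3 in control and 3315 bp in KO, with CTCF over 320 and 1537 bp, and its bin scored 0.086 and 0.099 in control and 1.23 and 1.12 in KO. At the third, chr11:130781508-130788201, H3K4me3 covered 1748 and 1816 bp, and the bin scored 0.24 and 0.26 in control and 0.52 and 0.38 in KO.

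Distances to KO H3K9me3 peaks partly restate the rule, which left no KO peak over any member. The nearest KO H3K9me3 peak lay a median of 176464 bp from a member, against 29470 bp for peaks lost in B, and it was within 5 kb of 4.73% of members. KO H3K9me3 peaks covered 1.54% of the flank at 5000 to 10000 bp from member midpoints, where control peaks covered 14.6%. Those flanks also hold other members, which have no KO peak by the rule. The KO H3K9me3 coverage of A as a whole is not given here, so these values are a description. Active marks were nearer: the nearest H3K27ac peak lay a median of 15892 bp from a member in control and 13366 bp in KO, and for H3K4me3 these were 11099 and 9150 bp. CTCF peaks lay 54429 and 29077 bp away, in lists of 23903 and 34474 peaks.

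Domain boundaries were not a preferred place. A control boundary of topologically associating domains (TADs, stretches that contact themselves more than their surroundings) lay within 20 kb of 10.5% (10.3 to 10.8%) of members, 8.07% of peaks kept in A and 13.1% of the length of A bins. With KO boundaries the share of members was 10.9%. Members lay in 4736 of 6118 control TADs, with a median of 6 in each, and in 56.1% of those TADs every control H3K9me3 peak was a member.

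Compartment scores, the only measure at the members with replicates, were compared between genotypes with limma in every bin that had all 4 replicate values. Because the rule used the sign of the control score, bins with members are set beside all bins of A, chosen in the same way. Of 12744 tested bins of A with a member, 18% scored higher in KO and 32.9% lower at an adjusted p under 0.05, and over all 14637 tested bins of A, most of which hold a member, the shares were 17.1% and 32.9%. Over the bins of both compartments they were 21.6% and 37.3%. The 1893 bins of A without a member scored higher in 10.7% and lower in 33.3% of cases, so the higher share was smaller there and the lower share was close. These 1893 join unlike bins. The 1708 without any control H3K9me3 peak under 20 kb scored higher in 11.5% and lower in 28.0%. The 185 with kept peaks alone scored lower in 82.7%. Control scores of the 1893 bins were higher, with a median of 0.75 in replicate 1 against 0.62 for bins with a member. Within quartiles of the control score, 26.7%, 21.2%, 12.8% and 10.2% of bins with a member scored higher, from the lowest quartile to the highest, and 18.2%, 12.4%, 8.67% and 7.65% of those without. Lower scores were called in 44.4%, 33.3%, 25.1% and 27.7% of bins with a member and in 62.1%, 30.5%, 23.4% and 27.8% of those without. With the columns scaled to equal spread, the shares at members were 13.3% and 39.1%. Median scores of bins with a member were 0.62 and 0.61 in the control replicates and 0.61 and 0.61 in KO, and 10.8% (10.3 to 11.4%) of these bins had a score below 0 in KO. The share was 10.2% (8.93 to 11.7%) in bins without a member and 4.31% (3.45 to 5.38%) in those without any control H3K9me3 peak under 20 kb.

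Bins separated by whether a kept peak stood in them too. Among 10626 bins with members and no kept peak, 18.6% scored higher and 29.3% lower, and 7.49% (7.0 to 8.0%) were below 0 in KO. In the 2118 bins that held both, 15.0% scored higher and 50.8% lower, and 27.5% (25.6 to 29.4%) were below 0 in KO. In the 185 with kept peaks alone, 82.7% scored lower, and 64.9% (57.7 to 71.4%) were below 0. Control scores differed between these classes as well, with medians of 0.65, 0.42 and 0.19 in replicate 1, and neighbouring bins are not independent, so these shares are a description.

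**Figure D5:**
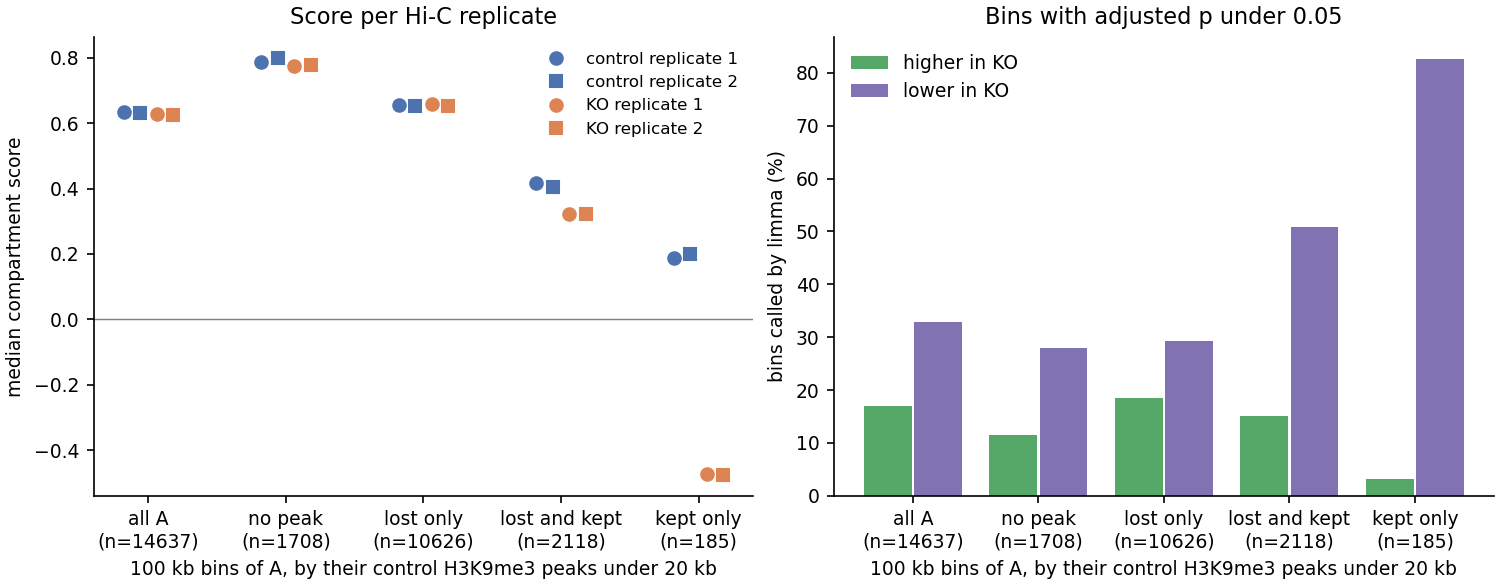
Left, median compartment score (vertical axis, as deposited) of 100 kb bins of A in each Hi-C replicate, for all bins and by the control H3K9me3 peaks under 20 kb they held. Right, percent of the same bins called higher or lower in KO by limma at an adjusted p under 0.05, with the number of bins below each class. Bins with lost peaks alone were lower in 29.3% of cases and bins with kept peaks alone in 82.7%.

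The change of H3K27ac and H3K27me3 at members differed with the score change of their bin, and that of CTCF ran the other way. In bins called higher in KO (8493 members), H3K27ac was on 9.76% of members in control and 14.3% in KO, and H3K27me3 on 29.1% and 20.1%. In bins called lower (13668 members), H3K27ac was on 8.33% and 9.16% and H3K27me3 on 40.2% and 35.3%. The 4671 members whose bin was below 0 in KO had H3K27ac on 4.37% and 4.32%, with H3K27me3 on 55.6% and 46.5%. Their log2 ratio of the H3K27me3 share, -0.26, was close to the -0.28 of members whose bin was above 0 in KO. These differences between bins rest on single peak lists and were not tested.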

How the data were processed

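A549 control and SETDB1 KO libraries were grouped by their labels (40 samples). The submitters' processing notes name Bowtie2 2.2.3, SAMtools 1.5, Picard and MACS2, STAR 2.6.1c, edgeR 3.30.0 and hg19. They give no roles, so peak threshold, pooling of libraries and the method of the compartment score are not given in the sources used here. Per the labels, histone chromatin was cut with MNase and CTCF chromatin by sonication, and H3K9me3 shares input libraries with the other histone marks. The deposited peak and domain lists hold positions (a unit of base pairs) and no peak height. The deposited compartment table holds a signed score per 100 kb bin. The deposited gene table holds read counts, used only to check labels, and PECAM1, a marker fixed for that check, was not analysed here.

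Members, comparison sets, sites to be named and alternatives were chosen with earlier results of these data known. Named sites were the 3 longest runs, the 3 fullest bins, and the 3 widest members overall and of each of 5 kinds of change, of which those printed were picked after their values were seen. Overlap was at least 1 bp. Peaks were handled with numpy 2.4.6 and pandas 2.3.3 in Python 3.11.15 and scipy 1.17.1, and bedtools 2.31.1 gave the same 42203 members. Scores were fitted with limma 3.58.1 in R 4.3.3 over 26503 bins with Benjamini-Hochberg adjustment over all of them. The 26496 of these bins that also had a pooled control score were counted. Tested on simulated scores for 26503 bins, that fit recovered 82.1% of 2000 bins shifted by 4 SD and 4.25% of those shifted by 2 SD. With 10000 bins shifted it recovered 95.3% and 18.2%. Replicates are separate libraries, and nothing says whether they come from separate cultures, so p-values may measure technical spread. No per-sample column went unmapped (0 columns). No gene names or sequences are given at the sites, because no annotation or genome of the build of the files was used here.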

Additional observations from a re-analysis of the deposited data

How the results depend on the processing

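Of 185 values recomputed under other settings, 136 stayed within the counting interval, 1.5 times the first value or the spread over chromosomes, and 49 moved. The wide limit of 1.5 times was used for the number of members and for the shares of bins called. A change of direction could be scored only for the log2 ratios, and 0 of those changed. The log2 ratio of the H3K27me3 share was -0.31 when no KO H3K9me3 peak was allowed within 5 kb, -0.21 with the mark within 1000 bp and -0.44 when shares were divided by the coverage of A. The H3K27ac ratio was 0.17 with the mark within 1000 bp and 0.22 divided by coverage. The H3K4me3 ratio was 0.47 with at least 200 bp of overlap, 0.24 within 1000 bp and 0.30 divided by coverage. The CTCF ratio was 1.44 with at least 200 bp and 0.087 divided by coverage. Values divided by coverage set a share of members against a covered length, which are unlike measures. The median gap was 15158 bp when a peak counted as kept only if a KO peak covered 50% of it, 16878 bp with no KO peak within 5 kb and 17187 bp for widths under 10 kb. The share of next peaks lost after a lost peak was 95.9%, 94.0% and, with the control score above its 10th percentile in A, 94.3%. Of 80 shares of members with a mark, 33 moved. The cause of these moves was not tested. With a replicate block in limma, bins with a member were higher in 19.0% and lower in 34.1%. Leaving out 1 Hi-C library, with the lone library of a genotype assumed to vary like the others, gave 12.4% to 18.2% higher and 25.6% to 32.3% lower calls. Same-numbered replicates did not deviate together in the score (correlation -0.0026). This cannot show whether the libraries were prepared as pairs. Peak lists without replicates or peak heights limit every share, and a site listed in 1 genotype may lie just under the threshold in the other.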
